A study of Drosophila melanogaster with 10 samples.

Results

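The genes described here serve light detection in the photoreceptor cells of the Drosophila melanogaster eye. They are trpl, trp, inaD, inaC, Arr1, Arr2 and PIP82, taken as every probe set whose platform annotation names one of them. That gave 7 of 10845 named genes, with 1 probe set each of 14010 on the array, and all 7 were bright enough to test, as were 8380 probe sets in all. The values are 1 array per hour, 10 arrays, from RNA of whole flies at hours 1, 2, 3, 5, 6, 7, 9, 10, 11 and 12 of a 12 hour course. All flies belonged to the No Yeast (NY) group: as larvae, early in the third instar, they were put on a diet without yeast and were still on it when the course began, 4 days after they emerged as adults. Hours 4 and 8 have no array because their RNA was too little, per the labels. Flies returned to yeast and the baseline samples of the same study were not used here. The labels give neither strain, sex nor the number of flies behind an array, nor do they give the light schedule or the clock time of hour 1.

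In the fly eye, light activates rhodopsin, which switches on a Gq protein and a phospholipase C. The cascade ends in the opening of the cation channels TRP and TRPL in the rhabdomere, the microvillar stack that holds the light-sensing membrane. INAD is a scaffold of PDZ domains that binds TRP, the phospholipase and the eye protein kinase C encoded by inaC. The arrestins encoded by Arr1 and Arr2 bind activated rhodopsin and end its signal. PIP82 is a photoreceptor phosphoprotein whose phosphorylation depends on light, so it belongs to the same cells but is no step of the cascade.

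The intensities are dChip-normalized and linear, and an intensity compares 1 probe set between arrays, never one gene with another. Array medians lay between 111.1 and 120 units. The array of hour 3 stood apart from the rest: its values lay 0.212 on the log2 scale from each probe set's mean, on average, against 0.08 to 0.134 on the other 9 arrays. The ratio of the actin control's 3' probe set to its 5' probe set, a sign of RNA quality, lay between 1.8 (hour 5) and 2.56 (hour 6). Among photoreceptor markers that are not members, 6 of 14 were named by a probe set used here (chp, rdgA, rdgB, rdgC, Galphaq and Gbeta76C). None was at 0, and their summed intensity was 1293 to 1506 in hours 7 to 12 and 1288 to 1551 in hours 1 to 6. On the array of hour 3 the rdgA probe set used here read 705.8 units, against 404.3 to 488.6 on the other 9 arrays. The 3 tested probe sets of rdgA had fitted log2 changes over the course of -0.24, 0.06 and -0.13, so no direction is given for this gene. The pigment cell and glia list (6 of 7 named) summed to 494.4 to 604.3 in hours 7 to 12 and 682.8 to 784.6 in hours 1 to 6. Most of that gap was 1 gene, Pdh, which had 94.6 to 160 units in hours 7 to 12 and 224 to 324 in hours 1 to 6. The other 5 genes of the list summed to 389.3 to 463.1 in hours 7 to 12 and 455.2 to 465.5 in hours 1 to 6, and these overlapped. The neuron list (6 of 8) summed to 1058 to 1386 in hours 7 to 12 and 1267 to 1549 in hours 1 to 6, and the yolk and egg list (5 of 5) to 1229 to 1654 in hours 7 to 12 and 1435 to 4790 in hours 1 to 6. For tissues outside the eye, the renal tubule list (3 of 5) summed to 403.5 to 526.2 in hours 7 to 12 and 403.5 to 482.7 in hours 1 to 6, and the antenna list (6 of 7) to 1569 to 1808 in hours 7 to 12 and 1674 to 2043 in hours 1 to 6. Of the 2 tubule genes tested, Irk3 had a fitted log2 change of 0.35 ± 0.18 and Oatp58Dc of 0.01 ± 0.13 (SE; limma, adjusted p = 0.937 and 0.994). The testis list (6 of 6) summed to 771.1 to 2328 in hours 7 to 12, with its peak on the array of hour 7, and 770.2 to 868.2 in hours 1 to 6. Each sum adds linear intensities of different genes, so the brightest genes of a list weigh most in it. None of these named markers was at 0, and their part in the results below was not tested. In RNA of whole flies, fewer cells of a type and less RNA per cell cannot be told apart.

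The first question was whether the genes changed steadily over the course. Of the 7 genes, trpl had a fitted change of 2.17-fold over the course, Arr1 and PIP82 had fitted changes of 1.32-fold and 1.34-fold, inaD had a fitted change to 0.786 of its starting level, and trp, inaC and Arr2 had fitted changes near 0. By limma with Benjamini-Hochberg adjustment over all 8380 probe sets, 0 of 7 passed the 0.05 threshold, where 4 of all tested probe sets did (0.0477%). At an unadjusted p under 0.05 there were 4 of 7, against 311 of all tested probe sets (3.71%). Of these trpl, Arr1 and PIP82 were higher later, as were 1.32% of all, and inaD was lower later, as were 2.39% of all. These genes were singled out with earlier results of the same arrays known, so that share is a description. The slopes of 3066 of the 8380 probe sets were above 0, and the median fitted change of all of them was -0.04 on the log2 scale. Among the 7 genes 5 slopes were above 0, with a median of 0.05.

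**Figure D1:**
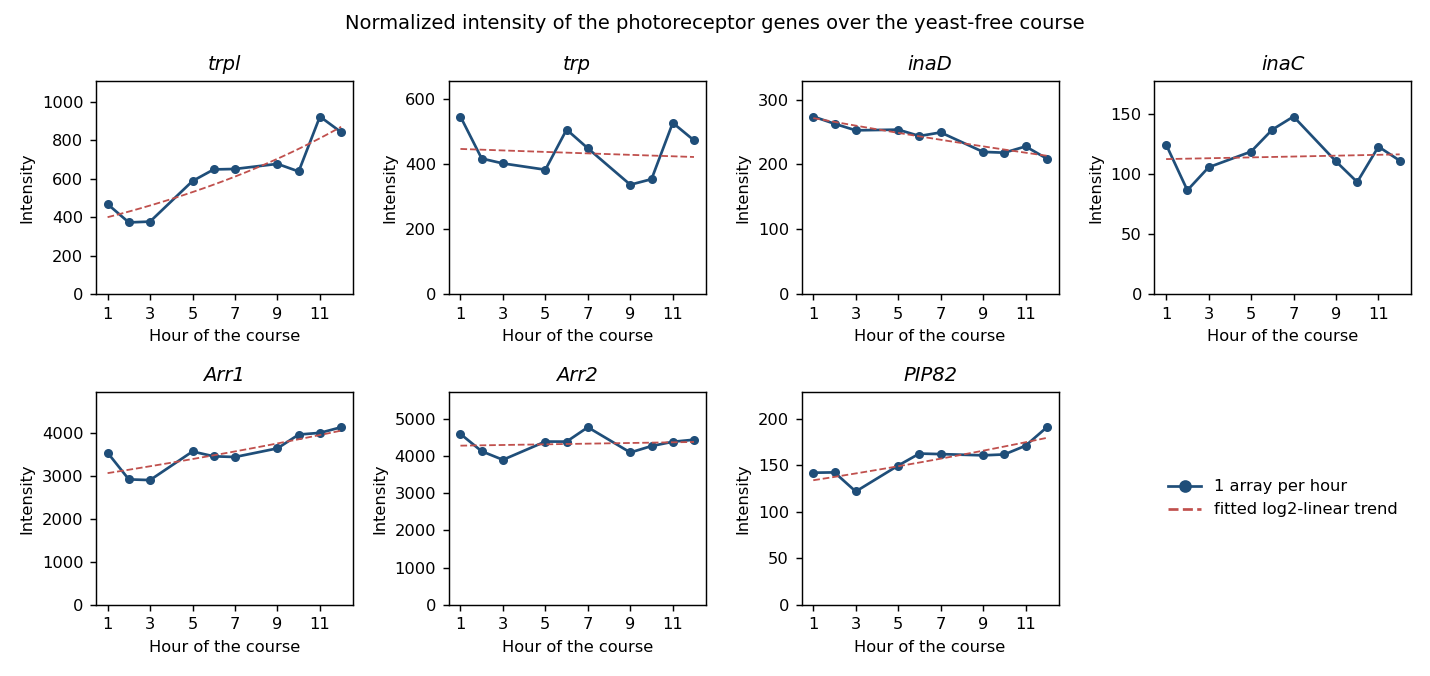
Intensity (linear, from 0) of each of the 7 genes against the hour of the course, 1 point per array, with the fitted log2-linear trend as a dashed line. The trpl points run from 373 at hour 2 to 925 at hour 11, while the Arr2 points stay between 3898 and 4773.

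trpl encodes the TRP-like cation channel, which leaves the rhabdomere in light and returns in the dark. The arrays of hours 1, 2 and 3 read 468.6, 373.1 and 377.5 units, those of hours 5, 6 and 7 read 588.7, 649.2 and 651.5, and those of hours 9, 10, 11 and 12 read 678.1, 638.6, 924.6 and 843. The course was low over hours 1 to 3, level from hour 6 to hour 10 and high at hours 11 and 12. Between neighbouring arrays the largest gains were 1.56-fold from hour 3 to hour 5, across the missing hour 4, and 1.45-fold from hour 10 to hour 11. Its fitted change over the course was 1.12 ± 0.18, in log2 units (SE, n = 10 arrays; limma, adjusted p = 0.098), which is 2.17-fold with a 95% interval of 1.65-fold to 2.87-fold. It was the highest upward change among the 8380 tested probe sets, and its p-value ranked 5th from the smallest. With quantile normalization the change was 1.21 ± 0.19 and passed (limma, adjusted p = 0.0478). It also passed, at 1.11 ± 0.12, when the mean of the 6 photoreceptor markers was added to the fit as a covariate (limma, adjusted p = 0.0126), an alternative chosen after the data were seen. Over the single arrays left out in turn the change lay between 1.02 and 1.28, with limma adjusted p-values of 0.0858 to 0.511.

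trp encodes the main light-activated channel, which carries most of the photoreceptor's calcium entry. Intensities at hours 1, 2 and 3 were 545.5, 416.5 and 401.5 units, those at hours 5, 6 and 7 were 382.2, 505.4 and 448, and those at hours 9, 10, 11 and 12 were 336.1, 353.1, 526.2 and 472.3. The highest arrays, those of hours 1, 6 and 11, were spread over the course, and the lowest were those of hours 9 and 10. The fitted change was -0.08 ± 0.22 (limma, adjusted p = 0.97), with a 95% interval from -0.56 to 0.39 on the log2 scale, so changes of up to 1.31-fold upward and to 0.68 of the starting level lay within it. Its sign turned without the array of hour 1, to 0.12, and without that of hour 10, to 0.0098.

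The channel genes trpl and trp were then set against each other by their log2 ratio on the same array, which shows unequal change without comparing their levels. Relative to its own mean, the ratio of trpl to trp was 0.626, 0.652 and 0.685 over hours 1, 2 and 3. Over hours 5, 6 and 7 it was 1.12, 0.935 and 1.06, and over hours 9, 10, 11 and 12 it was 1.47, 1.32, 1.28 and 1.3. The lowest ratios were those of hours 1 to 3 and the highest those of hours 9 to 12. These groupings were seen in the values, and how many other gene pairs share them was not counted. The ratios of hours 7 to 12 (1.06 to 1.47) and of hours 1 to 6 (0.626 to 1.12) overlapped. The ratio rose by 1.20 ± 0.19 on the log2 scale over the course (SE, n = 10 arrays; permutation test, two-sided, 100000 orders of the hours, p = 0.00041, Benjamini-Hochberg p = 0.00123 over 3 pairs). Leaving out each array in turn gave 1.14 to 1.34. The 3 pairs were chosen for shared function, but with earlier results of these arrays known, and the test takes the 10 arrays as exchangeable between hours.

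**Figure D2:**
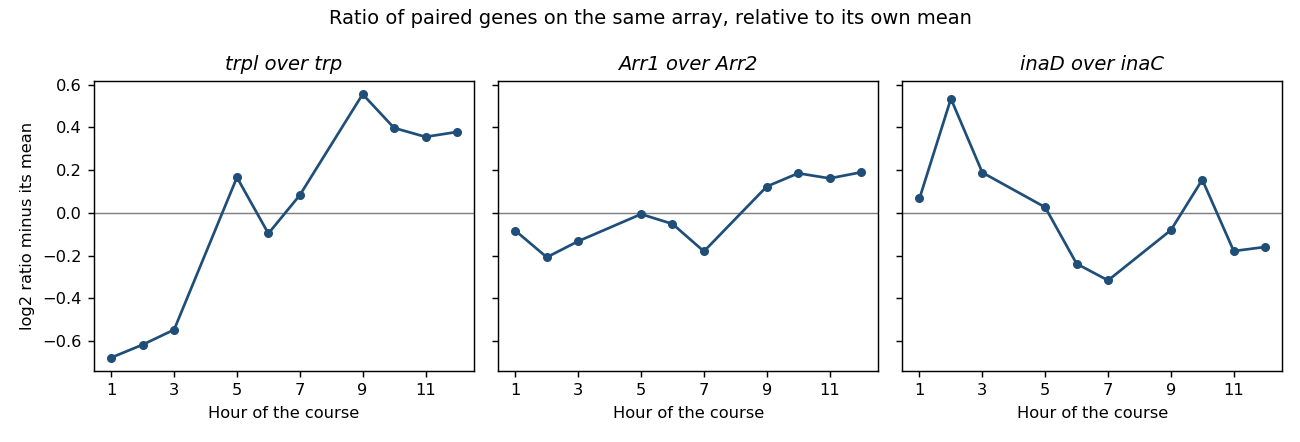
The log2 ratio of 2 genes on the same array minus its mean over the 10 arrays (vertical axis) against the hour, for trpl over trp, Arr1 over Arr2 and inaD over inaC, 1 point per array. The ratio of trpl to trp lies lowest at hours 1 to 3 and highest at hours 9 to 12.

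Arr1 encodes the arrestin that takes part in the endocytosis of rhodopsin. The arrays of hours 1, 2 and 3 read 3535, 2914 and 2899 units, those of hours 5, 6 and 7 read 3563, 3451 and 3435, and those of hours 9, 10, 11 and 12 read 3636, 3957, 3996 and 4127. Its lowest arrays were, as for trpl, those of hours 2 and 3, and its highest those of hours 10 to 12. The fitted change was 0.40 ± 0.10 (SE, n = 10 arrays; limma, adjusted p = 0.604), or 1.32-fold with a 95% interval of 1.14-fold to 1.53-fold. Without the array of hour 3 it was 0.35, and over all arrays left out in turn it lay between 0.35 and 0.55.

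Arr2 encodes the major arrestin of the eye, which moves into the rhabdomere in light. Intensities at hours 1, 2 and 3 were 4593, 4128 and 3898 units, those at hours 5, 6 and 7 were 4388, 4387 and 4773, and those at hours 9, 10, 11 and 12 were 4095, 4268, 4382 and 4438. It was the steadiest member, with a ratio of 1.23 between its highest array (hour 7) and its lowest (hour 3). The fitted change was 0.03 ± 0.08 (limma, adjusted p = 0.97), with a 95% interval from -0.14 to 0.21, and it was -0.02 without the array of hour 3.

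The ratio of Arr1 to Arr2 rose by 0.37 ± 0.08 on the log2 scale over the course (SE, n = 10 arrays; permutation test, two-sided, p = 0.00419, Benjamini-Hochberg p = 0.00628 over 3 pairs). Relative to its mean it was 0.866 to 0.996 over hours 1, 2, 3, 5 and 6, then 0.883 at hour 7, and 1.09 to 1.14 over hours 9, 10, 11 and 12. The last 4 arrays thus had the highest ratios. That grouping was seen in the values, and how many other gene pairs share it was not counted. The ratios of hours 7 to 12 (0.883 to 1.14) and of hours 1 to 6 (0.866 to 0.996) overlapped. The fitted rise was between 0.34 and 0.44 with each array left out.

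PIP82 encodes the light-dependent phosphoprotein of photoreceptors. The arrays of hours 1, 2 and 3 read 142, 142.3 and 121.8 units, those of hours 5, 6 and 7 read 149.7, 162.6 and 162, and those of hours 9, 10, 11 and 12 read 160.7, 161.7, 171 and 190.9. The values were lowest over hours 1 to 5, level from hour 6 to hour 10 and highest at hours 11 and 12. The fitted change was 0.42 ± 0.10 (SE, n = 10 arrays; limma, adjusted p = 0.584), or 1.34-fold with a 95% interval of 1.15-fold to 1.56-fold. Without the array of hour 3 it was 0.34.

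inaD encodes the scaffold that holds the signalling complex together. Intensities at hours 1, 2 and 3 were 274, 262.9 and 252.7 units, those at hours 5, 6 and 7 were 253.8, 244 and 249.5, and those at hours 9, 10, 11 and 12 were 219.4, 218.2, 227.9 and 209. The lowest arrays were those of hours 9 to 12. That grouping was seen in the values, and how many of all tested probe sets share it was not counted. The fitted change was -0.35 ± 0.08 (SE, n = 10 arrays; limma, adjusted p = 0.474), to 0.786 of the starting level with a 95% interval of 0.7 to 0.883. Scatter about that line was small, with a residual SD of 0.05 on the log2 scale, against 0.21 for trpl and 0.25 for both trp and inaC. With single arrays left out the change lay between -0.38 and -0.33.

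inaC encodes the eye protein kinase C, which INAD holds beside TRP and which helps to end the light response. The arrays of hours 1, 2 and 3 read 124.4, 86.3 and 105.4 units, those of hours 5, 6 and 7 read 118.5, 136.8 and 147.7, and those of hours 9, 10, 11 and 12 read 110.3, 93.2, 122.7 and 111. The highest arrays were in the middle of the course, at hours 6 and 7, and the lowest were those of hours 2 and 10. The fitted change was 0.05 ± 0.21 (limma, adjusted p = 0.982), with a 95% interval from -0.40 to 0.50, and its sign turned without the array of hour 2, to -0.14. The ratio of inaD to inaC had a fitted change of -0.40 ± 0.21 (SE, n = 10 arrays; permutation test, two-sided, p = 0.0923, Benjamini-Hochberg p = 0.0923 over 3 pairs), so the slopes of the scaffold and the kinase were not shown to differ. Without the array of hour 10 it was -0.49 and passed (permutation test, Benjamini-Hochberg p = 0.0435), and without that of hour 2 it was -0.21 (permutation test, Benjamini-Hochberg p = 0.282).

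The second question was whether the 5 arrays of hours 7 to 12 differed from the 5 of hours 1 to 6. 0 of 7 genes passed by limma, where 1 of the 8380 probe sets did (0.0119%), and at an unadjusted p under 0.05 there were 4 of 7 against 6.25% of all. No member had 5 later values clear of its 5 earlier ones, as 1.49% of all tested probe sets did. trpl averaged 747 ± 129 in hours 7 to 12 and 491 ± 124 in hours 1 to 6 (SD, n = 5 each), which differed by 0.62 ± 0.17 in log2 units (SE; limma, adjusted p = 0.517). Of its later arrays 4 of 5 lay above all earlier ones, and the array of hour 10 overlapped with that of hour 6. Arr1 averaged 3830 ± 285 in hours 7 to 12 and 3272 ± 337 in hours 1 to 6 (SD, n = 5 each), with 4 of 5 later arrays above all earlier ones and a difference of 0.23 ± 0.08 (SE; limma, adjusted p = 0.662). PIP82 averaged 169 ± 12.8 in hours 7 to 12 and 144 ± 14.8 in hours 1 to 6 (SD, n = 5 each), a difference of 0.24 ± 0.08 (SE; limma, adjusted p = 0.662). Only 2 of 5 later PIP82 arrays lay above all earlier ones.

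inaD went the other way in that comparison, with 225 ± 15.3 in hours 7 to 12 and 257 ± 11.4 in hours 1 to 6 (SD, n = 5 each). Its difference was -0.20 ± 0.06 (SE; limma, adjusted p = 0.627), and 4 of 5 later arrays lay below all earlier ones. The differences of trp, inaC and Arr2 were smaller. trp averaged 427 ± 80.7 in hours 7 to 12 and 450.2 ± 71.2 in hours 1 to 6, a difference of -0.08 in log2 units. inaC averaged 117 ± 20.1 in hours 7 to 12 and 114 ± 19.3 in hours 1 to 6, a difference of 0.03, and Arr2 averaged 4391 ± 251 in hours 7 to 12 and 4279 ± 270 in hours 1 to 6, a difference of 0.04 (SD, n = 5 each).

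The third question was whether any member changed over the hours along a smooth curve of any shape, a straight slope included. In an F test of a natural spline of the hour (limma, 3 degrees of freedom) 0 of 7 passed, as did 0 of 8380 (0%), and the adjusted p was 0.9999 for each of the 7. At an unadjusted p under 0.05 there were 4 of 7, the same 4 genes as for the trend, against 1.62% of all tested probe sets. The F test takes slope and bend together, so this count does not show a bend apart from the trend. A 24 hour cosine and sine curve gave trpl a fitted peak at hour 12 and a peak to trough size of 1.02 on the log2 scale (limma, adjusted p = 0.336). The arrays cover hours 1 to 12 only, so the trough of that curve lies outside them. This peak and size describe the fitted curve and are not a measured phase or amplitude. 0 of 7 passed with that curve, as did 0.0716% of all tested probe sets, and 0 of 7 with a quadratic one, as did 0.0477%. At an unadjusted p under 0.05 there were 4 of 7 with each curve by limma, against 2.17% of all tested probe sets with the cosine and sine and 1.95% with the quadratic curve. These were again the 4 genes of the trend, and both curves can take in a steady rise or fall.

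The rest of the pathway was taken as 6 lists of 58 genes, of which probe sets used here named 39, and 30 were bright enough to test. By limma over all 8380 probe sets 1 of these 30 passed the trend, where 4 of all tested probe sets did (0.0477%). An unadjusted p under 0.05 was found for 3 of 30 (Pdh, chp and Ggamma30A), where 3.71% of all had one. The gene that passed was Pdh, a retinol dehydrogenase of retinal pigment cells that serves the renewal of the visual chromophore, with -1.66 ± 0.21 (SE, n = 10 arrays; limma, adjusted p = 0.0432). Its size lay between -1.85 and -1.57 with each array left out, but it passed in 3 of those 10 fits (without the array of hour 2, 3 or 11; limma adjusted p-values of 0.0174 to 0.267 over the 10). It did not pass with no filter (limma, adjusted p = 0.199), with the actin ratio in the fit (0.0575) or without the arrays of hours 3 and 7 (0.0961). Of the 30 slopes 13 were above 0 and 17 below, with a median of -0.02, against -0.04 for all tested probe sets. Among the opsins 1 of 7 genes, Rh7, was named, and it was too dim to test, with intensities of 44.8 to 56.3 and a median of 48.8.

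Genes that act between rhodopsin and the channels gave small changes of both signs. In the Gq cascade and lipid cycle 9 of 11 genes were tested, 0 passed, and 4 slopes were above 0 and 5 below. Ggamma30A, the G protein gamma subunit gene of the eye, had 0.35 ± 0.14, with 266 units at first, a lowest value of 197 (hour 3) and a highest of 302 (hour 12). Gbeta76C, the eye's G protein beta subunit gene, had -0.30 ± 0.15, with 283 at hour 1 and 205 at hour 12. Pis, which encodes phosphatidylinositol synthase, had 0.19 ± 0.11, and its limma adjusted p-value, like those of the genes before it, was 0.937. The 2 tested probe sets of PIP5K59B, a phosphoinositide kinase gene, disagreed in sign, with -0.26 ± 0.18 for the brighter and 0.32 ± 0.18 for the other (limma, adjusted p = 0.937 for both), so no direction is given for this gene.

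For the ending of the response and adaptation 6 of 12 genes were tested, 0 passed, and the changes lay between -0.04 and 0.16. The rhodopsin phosphatase gene rdgC had 0.16 ± 0.16 and the sodium-calcium exchanger gene Calx 0.08 ± 0.25. For chromophore and rhodopsin maturation 4 of 11 were tested and 1 passed, Pdh, where 0.0477% of all tested probe sets did. All 4 slopes were below 0, as were 5314 of the 8380 slopes of all tested probe sets. Those of Rdh1 and ninaG were small, with changes of -0.02 ± 0.12 and -0.06 ± 0.06. The chaperone gene Cnx99A, known for rhodopsin folding, had -0.26 ± 0.12 (limma, adjusted p = 0.937). For the structure of the rhabdomere 6 of 9 were tested and 0 passed, and chp, which encodes the photoreceptor adhesion protein chaoptin, had 0.34 ± 0.13 (limma, adjusted p = 0.937). It read 390, 363 and 511 units at hours 1, 3 and 11. Of 8 photoreceptor transcription factor genes 5 were tested, 0 passed, and the changes lay between -0.11 and 0.05.

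**Figure D3:**
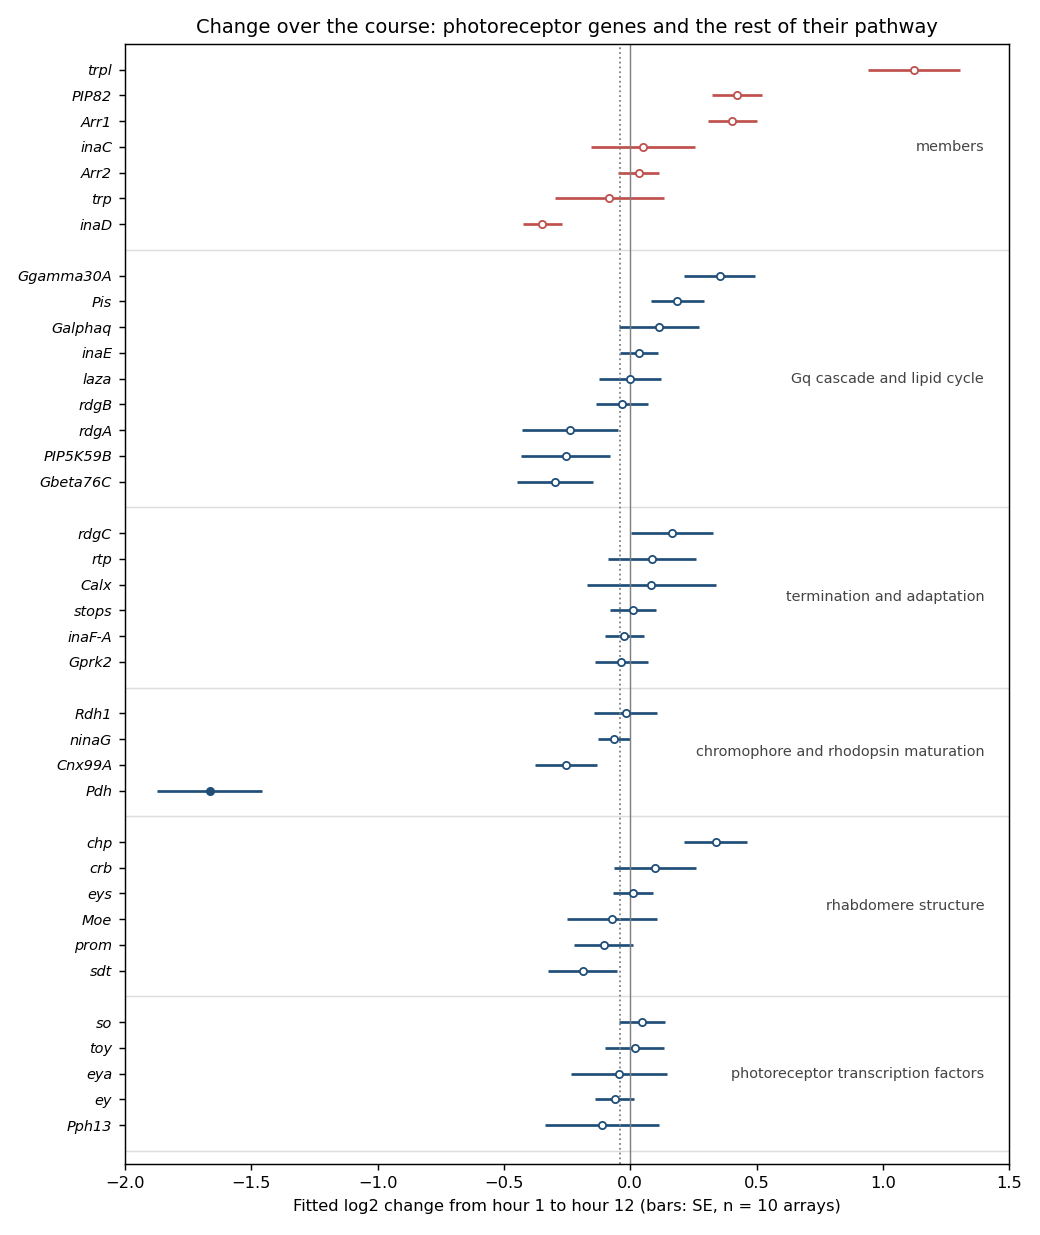
Fitted log2 change from hour 1 to hour 12 (points, with SE bars, n = 10 arrays) of the 7 photoreceptor genes (top block) and of the 30 tested genes of their pathway by list. Filled points passed over all probe sets and the dotted line is the median of all tested probe sets; trpl lies farthest right and Pdh farthest left.

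Likeness between the members' courses over the 10 arrays was measured by Pearson's r of log2 intensity. It is given as a description, since all values come from the same arrays, and no grouping was computed. trpl had r = 0.902 with PIP82 and r = 0.894 with Arr1, and Arr1 had r = 0.843 with PIP82. inaD had r = -0.743 with trpl, r = -0.719 with Arr1 and r = -0.734 with PIP82, and these were the 3 negative values among the 21 pairs of members. trp and inaC had r = 0.528 with each other, and inaC and Arr2 r = 0.695. Values of like size also joined Arr2 to PIP82 (0.504), Arr1 (0.46) and trpl (0.446), and trpl to inaC (0.419). The channel genes trpl and trp had r = 0.183.

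Of all tested genes, those most like trpl were CG7910 (r = 0.946 over 10 arrays), Inos, which encodes inositol phosphate synthase (0.935), CG6409 (0.926), the clock repressor gene vri (0.92) and Vha55, a proton pump subunit gene (0.915). vri read 243, 208 and 209 units over hours 1, 2 and 3 and 319, 418 and 426 units over hours 10, 11 and 12, so both genes had their lowest arrays at hours 2 and 3 and their highest at hours 11 and 12. The clock gene tim, whose lowest array was hour 7, had r = 0.439 with trpl. Most like Arr1 were Bruce, which encodes a large ubiquitin-conjugating enzyme that restrains cell death (0.95), the kinase gene Doa (0.944), CG17839 (0.937), the zinc transporter gene foi (0.925) and 1 probe set of the dystrophin gene Dys (0.909), whose 3 tested probe sets had changes of 0.44, -0.02 and -0.28.

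Most like inaD were Pdh (r = 0.927 over 10 arrays), t, also called tan, which frees histamine from its beta-alanyl conjugate (0.925), Culd (0.889), CG14277 (0.873) and the antibacterial gene Listericin (0.858). CULD is a photoreceptor protein needed for the endocytic traffic of rhodopsin and TRPL. Over hours 1, 6 and 12 Culd read 249, 202 and 126 units, a change of -0.95 ± 0.23 (SE, n = 10 arrays; limma, adjusted p = 0.604). In the same hours Pdh read 324, 224 and 94.6 units, and t read 231, 158 and 119. Each of these 3 genes had a fitted change more than 2 times as large on the log2 scale as that of inaD.

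**Figure D4:**
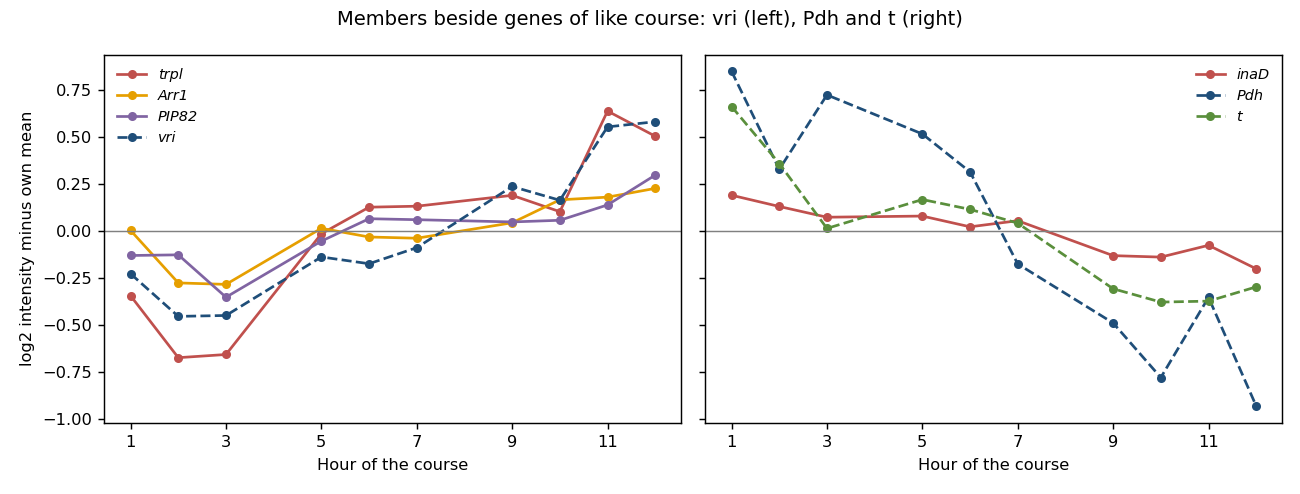
Log2 intensity minus each gene's own mean against the hour, 1 point per array. The left panel shows trpl, Arr1 and PIP82 with the clock gene vri (dashed), all lowest at hours 2 or 3; the right panel shows inaD with Pdh and t (dashed), which end the course lower than they began.

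The members were also set beside the photoreceptor markers that are not members. The mean log2 deviation of those 6 markers was 0.12 at hours 1 and 11, 0.05 at hour 6, -0.12 at hour 9 and -0.13 at hours 2 and 10. At hour 3 it was -0.03, where rdgA stood at 0.59 and all the other markers between -0.37 and -0.05. What that 1 rdgA value does to the correlations and fits with this mean was not tested. Across the 10 arrays trp had r = 0.849 with that mean, inaC 0.752 and Arr2 0.653, while trpl had 0.384, Arr1 0.333, PIP82 0.235 and inaD 0.199. These values are descriptions over arrays shared by members and markers, they include each gene's own trend, and no difference between them was tested. With the marker mean as a covariate the SE of the change was 0.13 for trp, against 0.22 without it, 0.12 for trpl, against 0.18, and 0.15 for inaC, against 0.21. The trp change in that fit was -0.10 (limma, adjusted p = 0.883). The changes of Arr1, PIP82 and inaD in that fit were 0.40, 0.42 and -0.35, and none of them passed, with limma adjusted p-values of 0.388, 0.462 and 0.262. With the actin ratio in its place trpl had a change of 1.12 ± 0.19 (limma, adjusted p = 0.129).

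**Figure D5:**
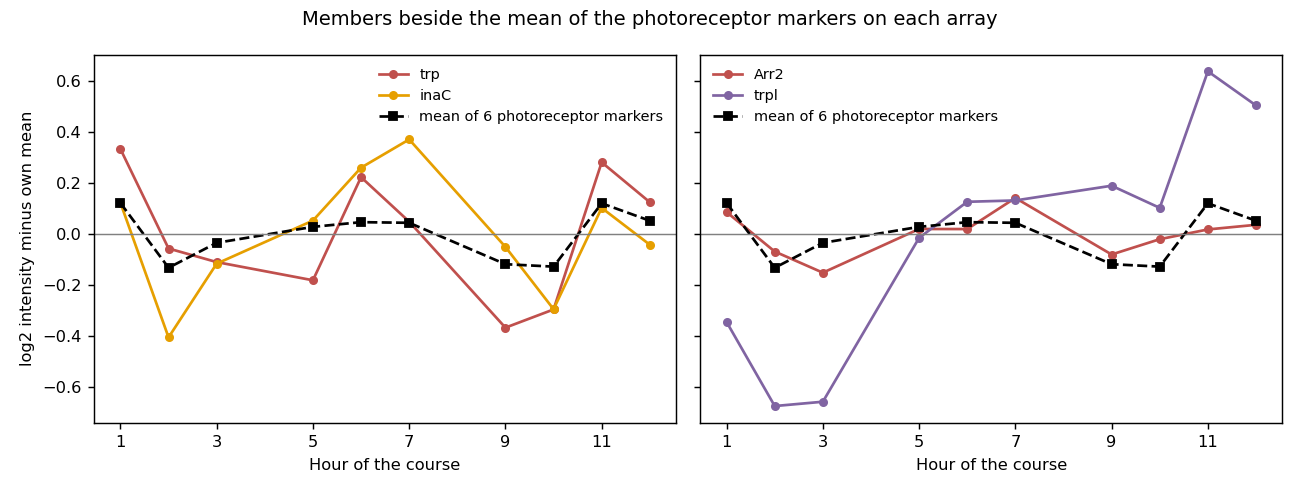
Log2 intensity minus own mean for trp and inaC (left) and for Arr2 and trpl (right), with the mean of 6 photoreceptor markers (black squares, dashed), against the hour, 1 point per array. The markers and trp are both low at hours 9 and 10 and high at hours 1 and 11, while trpl runs upward across them.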

How the data were processed

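RNA of whole flies, extracted with Trizol, was hybridised to Affymetrix Drosophila arrays, per the labels. The deposited values are linear intensities that the authors normalized with dChip, which scales arrays through probes of stable rank, per the labels, so a shift common to most genes cannot be seen. The expression model is not given in the sources used here. No genome build is named, so no coordinates are given.

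The platform annotation named 1 gene for 12443 probe sets, several for 327 and none for 1196; symbols were updated by Entrez identifier through the Release 6 gene table. Intensities under the 20th percentile (57.2) were set to it, then log2 was taken. Tests covered the probe sets whose mean log2 reached the 40th percentile. Fits used limma 3.58.1 in R 4.3.3 (lmFit, eBayes with an intensity trend, two-sided), and a trend is printed as the fitted change across the 11 hours. The brightest probe set stood for a gene. The fits were first run on simulated data with independent scatter and planted changes. Those data held no array-wide deviation like that of hour 3, so they do not show how the fits behave under one. Pair ratios used Python 3.11.15.

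With 1 array per hour, p-values rest on scatter about a fitted course, and precision is limited by how few arrays there are. The members, lists, pairs and tests were chosen with earlier results of these data known. Named were the 7 members, up to 4 genes per list by smallest trend p, the 5 genes most like trpl, Arr1 and inaD, and tim, vri, Pdh and t. Alternatives were other normalizations, floors, filters, variance models, covariates, splits and curves, and each array left out.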

Additional observations from a re-analysis of the deposited data

How the results depend on the processing

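The trend count of 4 probe sets was 1 with an added offset in place of the floor, 0 with no filter, 0 with the actin ratio added to the fit and 1 without the arrays of hours 3 and 7, which was added after the data were seen. With each array left out it lay between 0 and 2. The later against earlier count of 1 was 3 with quantile normalization, 2 with median centring, 3 with the filter at the 60th percentile, and 0 with no filter, with the actin ratio or with the split after hour 5 or hour 7. With each array left out it lay between 0 and 2. The smooth count of 0 was 4 with a quadratic curve and 6 with a 24 hour cosine and sine, no member among them. The members under an unadjusted p of 0.05 in the spline test also moved. inaD had 0.111 with quantile normalization and 0.0561 with median centring (limma, unadjusted). Without the array of hour 12, inaD had 0.0958, PIP82 0.068 and Arr1 0.0538 (limma, unadjusted). Without that of hour 1, inaC came under it, at 0.0218 (limma, unadjusted). Among members, trpl passed the trend with quantile normalization (1.21) and with the photoreceptor marker mean as a covariate (1.11), and under no other alternative run. Signs turned for genes near 0: for trp 0.0061 with the split after hour 5, for inaC -0.12 and for Arr2 -0.019 with the split after hour 7, and for Arr2 -0.018 without the arrays of hours 3 and 7. Over the arrays left out the trend of trp lay between -0.23 and 0.12, of inaC between -0.14 and 0.16 and of Arr2 between -0.018 and 0.10, and the later against earlier difference of inaC between -0.062 and 0.11. The pair change of inaD and inaC lay between -0.49 and -0.21. The causes were not tested. The other pair changes kept sign and call under each alternative run, within 0.34 to 0.44 for Arr1 and Arr2 and 1.09 to 1.34 for trpl and trp. inaC was too dim for the filter at the 60th percentile. No paired analysis was possible because there is 1 group.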

Other observations

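The following values were chosen after they were seen. The gene rdgC, whose product removes phosphate from rhodopsin, was among the 5 genes most like Arr2, with r = 0.944 over the 10 arrays. CG43658 (0.951), her (0.95) and CG4956 (0.949) were closer to Arr2. The rdgC probe set was barely bright enough to test, with a mean log2 of 6.5514 against a filter at 6.5509. trpl was among the 5 most like PIP82. lama, a gene named for its expression in precursors of the lamina of the optic lobe, was among the 5 most like inaC (r = 0.929), with its highest value at hour 7 (135) and its lowest at hour 10 (93.8). Gar1 (0.945), Max (0.94) and Cyt-b5 (0.931) were closer to inaC. Culd passed the trend over all probe sets, beside trpl, Pdh, t, vri and Usp8, when the photoreceptor marker mean was a covariate.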
